A study of Homo sapiens with 6 samples.

Results

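The translation initiation factors are the proteins that bring messenger RNA, the initiator tRNA and the ribosomal subunits together at a start codon. Their genes were taken by name: every gene of the deposited count table whose name began with EIF and a digit from 1 to 6, placed on an assembled chromosome, without names that contain a hyphen, pseudogene names and EIF1AY. That gave 55 of 63299 genes. They include the 4 kinases that phosphorylate eIF2 alpha and the repressors that bind eIF4E. The rule itself uses names and positions and no measured value. They were followed in LNCaP, an established human prostate cancer cell line that depends on androgen. The knockdown cells received doxycycline, which induced a short hairpin RNA against MEP50 (3 libraries), and the control cells did not (3 libraries). MEP50, encoded by WDR77, is the partner subunit of the arginine methyltransferase PRMT5. Both groups were the same line, and no library received doxycycline without lowering of MEP50, so the drug, effects of the hairpin on other transcripts and the lowering of MEP50 cannot be told apart. The comparison asks which of these factors differ in messenger RNA level after MEP50 knockdown.

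Initiation starts when eIF2, bound to GTP and the initiator tRNA, joins the small ribosomal subunit together with eIF1, eIF1A, eIF3 and eIF5. The eIF4F complex, made of the cap binding protein eIF4E, the scaffold eIF4G and the helicase eIF4A, loads this assembly on capped messages. The 4E-BPs, when not phosphorylated by mTORC1, occupy eIF4E and block that step. After each round eIF2B recharges eIF2 with GTP, and phosphorylation of eIF2 alpha turns eIF2 from a substrate of eIF2B into its inhibitor. All values here are messenger RNA, so phosphorylation and protein levels were not measured.

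The libraries held 18568002 to 36234784 reads counted on genes, and the initiation factors took 1.05% to 1.14% of them in each. WDR77 reached 15.05, 14.03 and 12.73 CPM in the knockdown libraries, against 49.28, 47.16 and 36.71 CPM in the control libraries, with no overlap. CPM is the count scaled to a common library total. WDR77 fell 3.18-fold (log2 fold change -1.67, SE 0.16, adjusted p 0.00131, edgeR quasi-likelihood test), the direction that the labels give. All 11 listed LNCaP markers were tested and 4 of them fell, and their summed level was 4943 to 5575 CPM in knockdown libraries and 8169 to 9489 CPM in control libraries. Of 12 markers of other cell types, 9 averaged under 1 CPM in both groups and KRT5 and DES had 0 reads in all libraries. Of the 6 tested, KRT14 fell (0 to 0.229 CPM in knockdown libraries and 0.666 to 1.11 CPM in control libraries, log2 fold change -3.60, adjusted p 0.0338), and with the block KRT14 and VWF were lower and ACTA2 higher. The 12 summed to 28.3 to 44.0 CPM in knockdown libraries and 28.9 to 52.4 CPM in control libraries. Of 14 markers of replication and mitosis 6 fell, and 14 were called lower with the replicate number as a block. Their sum was 1788, 1363 and 848 CPM in knockdown libraries 1, 2 and 3, against 3507, 2748 and 1790 CPM in control libraries 1, 2 and 3. Fewer cycling cells and less of these messages per cell cannot be told apart in bulk RNA, and the part of this difference in the results below was not tested.

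Of the 55 factors, 54 had enough reads to be tested, all but the germ line cap binding protein gene EIF4E1B, with 0 to 6 reads a library. In the main test 4 factors fell, EIF5A2, EIF2B3, EIF5A and EIF6, and 0 rose (edgeR quasi-likelihood test, adjusted p under 0.05 over all 21101 tested genes). At an unadjusted p under 0.05, 16 were lower and 2 were higher, against 3025 and 2194 of all 21101 tested genes. DESeq2 called 6 lower and 1 higher, and limma-voom called 5 lower and 0 higher. Over all tested genes 7.6% were called, 2.72% higher and 4.88% lower, so the calls among the factors, 7.41% of 54, stood at the share of all genes. The calls lay in the eIF5A family (2 of 3 genes), in eIF2B (1 of 5) and on EIF6, and 0 in the other roles. When replicate number entered the model as a block, so that the libraries of a number were compared with each other, 17 factors were called lower and 3 higher. All genes then gave 26.1% called, 11.2% higher and 14.9% lower, against 31.5% lower and 5.56% higher among the factors. The values of the 3 knockdown libraries lay below all 3 control values in 19 factors and above them in 4. Over all 21101 tested genes they lay below in 3582 and above in 2824. Both directions together made 42.6% of the factors, against 30.4% of all tested genes. The median log2 fold change was -0.11 over the factors and 0.00 over all tested genes. With library totals in place of TMM scaling these medians were -0.02 and 0.09. The calls over all genes are less lopsided under that scaling, with 50.3% of them lower, against 64.2% under TMM.

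**Figure D1:**
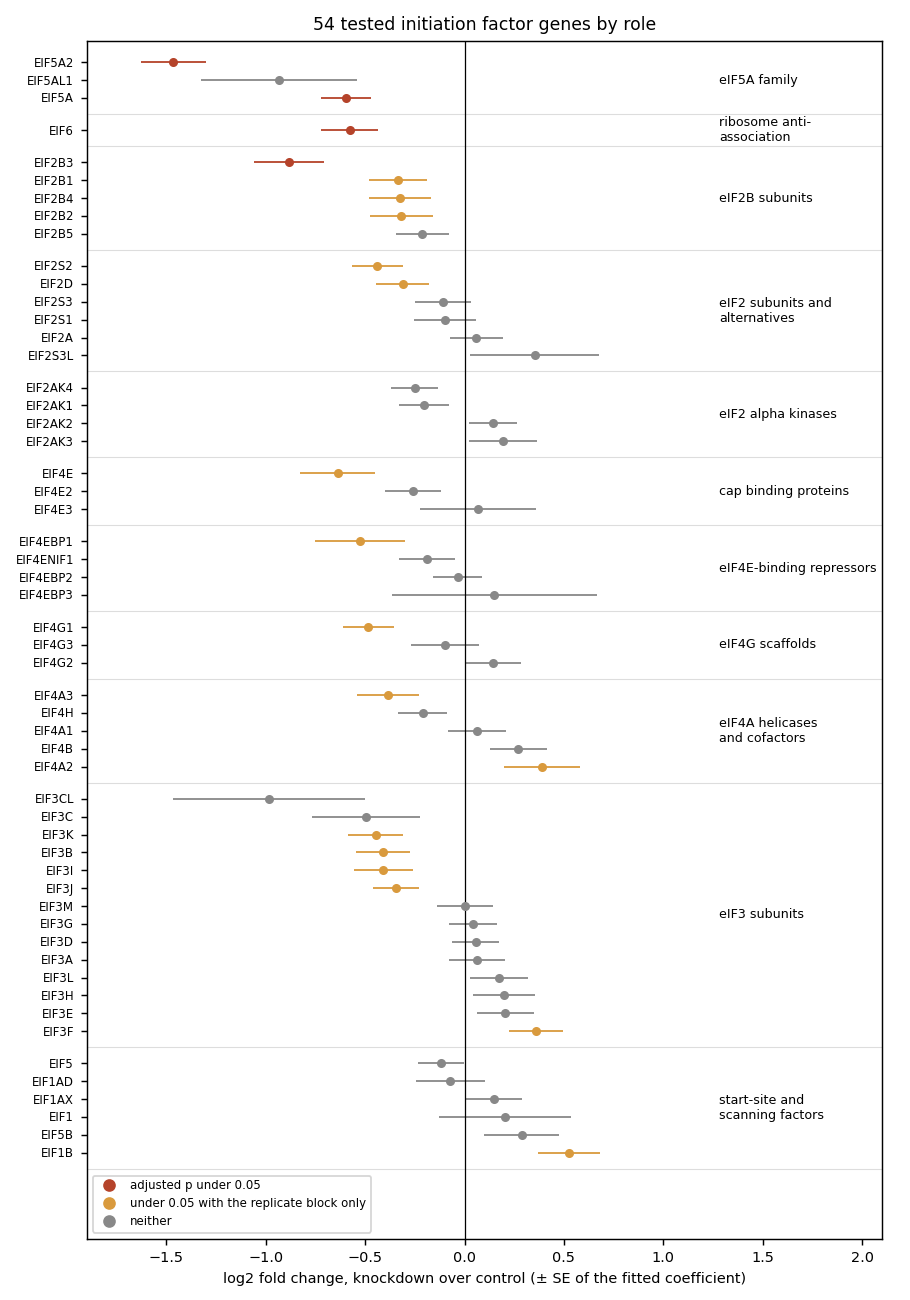
Log2 fold change, knockdown over control, of the 54 tested initiation factors, grouped by role, with bars for the standard error of the edgeR fit, in red for genes with an adjusted p under 0.05, orange for those under it only with the replicate block and grey for the rest. EIF5A2 at -1.47 stands furthest to the left, and EIF1B at 0.52 furthest to the right.

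The eIF5A proteins bind the ribosome and relieve stalls, in elongation and at termination, and are the only proteins known to carry the amino acid hypusine. EIF5A2 (ENSG00000163577.7, chr3:170888415-170908693, minus strand, hg38), the isoform that most adult tissues hold at low level, was measured at 9.53, 8.35 and 7.56 CPM in the knockdown libraries, against 25.6, 22.9 and 21.7 CPM in the control libraries. Every knockdown library was below 21.7 CPM, the lowest control value. EIF5A2 fell 2.76-fold, averaging 8.48 ± 0.994 CPM in knockdown cells and 23.4 ± 2.00 CPM in control cells (SD, n = 3 each; log2 fold change -1.47, SE 0.16, adjusted p 0.00200, edgeR). Within pairs of the same replicate number the log2 ratio was -1.42, -1.45 and -1.52. It was also called in each of the 6 fits that left out 1 library, the only initiation factor for which that held, with log2 fold changes from -1.56 to -1.36. The targeted gene WDR77 had a log2 fold change of -1.67.

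EIF5A (ENSG00000132507.17, chr17:7306999-7312463, plus strand), the form expressed in all dividing cells, was measured at 229, 218 and 206 CPM in the knockdown libraries, against 369.7, 299.9 and 316 CPM in the control libraries. The highest knockdown value was under the lowest control value. EIF5A fell 1.51-fold (log2 fold change -0.60, SE 0.13, adjusted p 0.0257, edgeR; 0.00107 with the block). The call was lost without knockdown library 1, 2 or 3 or control library 1 or 3, with adjusted p up to 0.107. EIF5AL1, an EIF5A-like gene, held 0.482, 0.297 and 0.321 CPM in the knockdown libraries, against 0.892, 0.699 and 0.485 CPM in the control libraries, and was not called (log2 fold change -0.93, adjusted p 0.178). EIF5A and EIF5AL1 are near-identical in sequence, so the split of reads between them is uncertain. Per length, as RPKM, which is CPM per kilobase of exon, EIF5A averaged 77.2 ± 4.09 RPKM in knockdown cells and 117 ± 13.0 RPKM in control cells, and EIF5A2 averaged 1.52 ± 0.178 RPKM in knockdown cells and 4.18 ± 0.358 RPKM in control cells. The ratio of EIF5A2 to EIF5A per length was 0.0210, 0.0193 and 0.0185 in knockdown libraries, against 0.0349, 0.0384 and 0.0345 in control libraries. The ratio was thus lower in 3 of 3 knockdown libraries, with a log2 difference of -0.88 (exact two-sided permutation p 0.1, the smallest that 3 against 3 allow, and 0.2 after adjustment over 6 ratios).

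The starts of these genes were searched for known promoter motifs. RefSeq promoters (GRCh38.p14, the 250 bases before each start) could be matched to 46 of the 55 factors, at the first start listed for each. The E-box CACGTG, the site of MYC with MAX and of other helix-loop-helix factors, was found on either strand in 12 of 46, or 26.1%, against 7.37% of 22198 promoters of coding genes. The ETS core CCGGAAG was in 9 of them, or 19.6%, against 10.7%, and CCAAT, the site of NF-Y, in 18, or 39.1%, against 32.7%. The E2F words, either TTTCCCGC or the form TTTGGCGC, were in 0 of 46, against 2.40%. The promoters of coding genes were not limited to 1 start per gene or to genes expressed in LNCaP. The 2 sets are thus unlike, and expressed genes alone were not compared. The stretches just before the annotated first exons of EIF5A2, EIF2B3 and EIF4G1 are shown, the first 2 as the called genes with an E-box and EIF4G1 as a core subunit of eIF4F with one. That of EIF5A is shown as the paralog without one. Each runs 5′ to 3′ on the strand of its gene, and capitals mark the E-box, the ETS core and the CCAAT box, and no match shares a base with another match there.
EIF5A2, chr3:170908694-170908887, minus strand: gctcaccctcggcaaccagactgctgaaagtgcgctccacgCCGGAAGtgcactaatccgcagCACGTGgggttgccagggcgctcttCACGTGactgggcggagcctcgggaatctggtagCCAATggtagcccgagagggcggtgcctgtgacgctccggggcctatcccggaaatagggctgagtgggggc
EIF2B3, chr1:44986723-44986845, minus strand: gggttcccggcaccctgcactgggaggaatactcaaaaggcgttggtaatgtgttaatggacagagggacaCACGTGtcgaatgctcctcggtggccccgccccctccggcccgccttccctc
EIF4G1, chr3:184314356-184314494, plus strand: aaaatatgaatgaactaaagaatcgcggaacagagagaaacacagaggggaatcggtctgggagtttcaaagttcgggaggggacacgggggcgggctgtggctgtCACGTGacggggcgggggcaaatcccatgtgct
EIF5A, chr17:7306749-7306998, plus strand: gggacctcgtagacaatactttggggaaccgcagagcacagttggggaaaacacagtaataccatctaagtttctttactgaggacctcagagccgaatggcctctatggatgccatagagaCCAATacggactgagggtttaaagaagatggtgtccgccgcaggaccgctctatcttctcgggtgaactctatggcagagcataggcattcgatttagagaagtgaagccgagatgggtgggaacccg
EIF5A2 held 2 E-boxes, 1 ETS word and 1 CCAAT. The stretches above leave out the bases of the 250 searched that lie in annotated exons. These are 56 for EIF5A2, 127 for EIF2B3 and 111 for EIF4G1, and matches in them are not printed. The full window of EIF4G1 held 2 E-boxes, and that of EIF2B3 held 1 E-box and 1 CCAAT. Of the 12 factors with an E-box in the window, 2 fell without the block, and 6 were lower and 2 higher with it, with a median log2 fold change of -0.30. Of the 33 tested factors without one, 2 fell without the block, and 9 were lower and 1 higher with it, with a median of -0.11. All knockdown values lay below all control values in 7 of the 12 (EIF5A2, EIF2B3, EIF4G1, EIF4E, EIF3K, EIF4A3 and EIF4H) and above them in 4 (EIF1B, EIF3F, EIF2AK2 and EIF4B). In the 33 without an E-box they lay below in 11 and above in 0. Over all 21101 tested genes they lay below in 3582 and above in 2824, together 30.4%. Whether the E-box bears on any of these differences was not tested, and a match in these letters says nothing of whether a protein binds there.

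EIF6, which binds the large ribosomal subunit and keeps it from joining the small one too early, was measured at 58.1, 48.8 and 50.4 CPM in the knockdown libraries, against 89.6, 68.0 and 77.1 CPM in the control libraries. All 3 knockdown values lay below all 3 control values. EIF6 (ENSG00000242372.6, chr20:35278907-35284985, minus strand) fell 1.49-fold (log2 fold change -0.58, SE 0.14, adjusted p 0.0436, edgeR; 0.00111 with the block). The call held in 1 of the 6 fits without 1 library, the one without control library 2, and was lost without each of the other libraries, with adjusted p up to 0.170. Under RLE scaling and under library totals it was also lost. A same-strand gene, RP4-614O4.11, shares 17.3% of its exon length.

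eIF2B, the exchange factor that recharges eIF2 with GTP, has 5 subunits, and the log2 fold change was negative for 5 of 5 under TMM, RLE and library totals. Under TMM it was negative for 32 of the 54 tested factors and for 10499 of all 21101 tested genes. EIF2B3 encodes gamma, which with epsilon forms the catalytic part of the complex. It was measured at 20.6, 23.7 and 17.6 CPM in the knockdown libraries, against 45.4, 36.3 and 32.9 CPM in the control libraries, with every knockdown value below every control value. EIF2B3 (ENSG00000070785.16, chr1:44850522-44986722, minus strand) fell 1.85-fold (log2 fold change -0.88, SE 0.18, adjusted p 0.0202, edgeR). The call was lost without knockdown library 3 (adjusted p 0.0733) or control library 1 (0.0647). It was the 1 subunit of 5, all tested, that passed in the main test.

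The other subunits had smaller differences. EIF2B1, the alpha subunit and the contact of phosphorylated eIF2, held 82.1, 62.2 and 66.2 CPM in the knockdown libraries, against 98.6, 82.4 and 84.6 CPM in the control libraries. EIF2B2, the beta subunit, held 42.7, 32.5 and 38.3 CPM in the knockdown libraries, against 55.1, 41.7 and 44.6 CPM in the control libraries. EIF2B4, the delta subunit, held 39.0, 28.1 and 33.8 CPM in the knockdown libraries, against 46.4, 39.4 and 40.6 CPM in the control libraries. The EIF2B1 ranges did not overlap, nor did those of EIF2B4, while those of EIF2B2 did, since knockdown library 1 was above control library 2. In each replicate number the knockdown library was the lower one for all 3 genes. These 3 subunits were called lower only with the block, with adjusted p of 0.0206, 0.0441 and 0.0411, against 0.189, 0.260 and 0.238 without it (edgeR). The block called 14.9% of all tested genes lower. EIF2B5, the catalytic epsilon subunit, held 98.7, 103 and 86.7 CPM in the knockdown libraries, against 127, 102 and 105 CPM in the control libraries, a log2 fold change of -0.21 that passed in neither fit (adjusted p 0.366, and 0.165 with the block). The median log2 fold change of the 5 was -0.33, against 0.00 over all tested genes.

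eIF2 itself has alpha, beta and gamma subunits, encoded by EIF2S1, EIF2S2 and EIF2S3. EIF2S2, which contacts eIF2B and eIF5, held 138, 151 and 162 CPM in the knockdown libraries, against 205, 183 and 224 CPM in the control libraries. The ranges did not overlap, and the log2 fold change of -0.44 (SE 0.13) passed only with the block (adjusted p 0.0696 without it and 0.00697 with it, edgeR). EIF2S1, which carries the regulatory phosphorylation site, held 260.1, 229 and 212 CPM in the knockdown libraries, against 301, 219 and 231 CPM in the control libraries, with overlapping ranges (log2 fold change -0.10, adjusted p 0.738). EIF2S3, the GTP binding subunit, had a log2 fold change of -0.11 (adjusted p 0.671). Among the factors that can place a tRNA without eIF2, EIF2D was called lower only with the block (log2 fold change -0.31, adjusted p 0.180 without it and 0.0408 with it), and EIF2A had a log2 fold change of 0.06. EIF2S3L, a gene like EIF2S3 whose reads may be shared with it, was not called (log2 fold change 0.35, adjusted p 0.542).

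Messenger RNA for the 4 kinases that phosphorylate eIF2 alpha was not called in either direction: 0 of 4 passed in edgeR, with or without the block, in DESeq2 or in limma-voom, and 0 had an unadjusted p under 0.05 in the main test. EIF2AK3 (PERK), the sensor of unfolded protein in the endoplasmic reticulum, held 56.4, 65.6 and 78.8 CPM in the knockdown libraries, against 61.2, 48.2 and 66.3 CPM in the control libraries. The ranges overlapped (log2 fold change 0.19, adjusted p 0.521). EIF2AK4 (GCN2), the sensor of uncharged tRNA, held 199, 209.6 and 179 CPM in the knockdown libraries, against 245, 236 and 219 CPM in the control libraries. Every knockdown value was below every control value, but the difference of -0.25 on the log2 scale (SE 0.12) did not pass (adjusted p 0.233, and 0.0761 with the block). EIF2AK2 (PKR), the sensor of double-stranded RNA, had a log2 fold change of 0.14 (adjusted p 0.504), with all knockdown values, 66.8 to 67.5 CPM, just above the control values of 54.8 to 66.5 CPM. EIF2AK1 (HRI), activated by lack of haem, had a log2 fold change of -0.20 (adjusted p 0.354).

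Of the 14 genes of eIF3, the scaffold that bridges the small subunit and eIF4G, 0 passed without the block, by edgeR, DESeq2 or limma-voom. At an unadjusted p under 0.05 in edgeR 4 were lower and 1 higher, against 3025 and 2194 of all 21101 tested genes. With the block 4 were called lower and 1 higher, against 14.9% and 11.2% of all tested genes. The 4 were EIF3B, EIF3I, EIF3J and EIF3K. EIF3B and EIF3I form, with EIF3G, the module that sits at the mRNA entry side. EIF3B held 317, 372 and 289 CPM in the knockdown libraries, against 466, 434 and 400.1 CPM in the control libraries, and EIF3I held 304, 262 and 259 CPM in the knockdown libraries, against 429, 318 and 348 CPM in the control libraries. Neither pair of ranges overlapped. The log2 fold change was -0.41 for EIF3B (adjusted p 0.104 without the block and 0.0139 with it) and -0.41 for EIF3I (0.124 and 0.0125). The third gene of that module, EIF3G, had a log2 fold change of 0.04 (adjusted p 0.870). EIF3K, a peripheral subunit that yeast lacks, held 155, 124 and 144 CPM in the knockdown libraries, against 214, 171 and 192 CPM in the control libraries (log2 fold change -0.45, adjusted p 0.0812 without the block and 0.00421 with it). EIF3J, the loosely bound subunit that acts in subunit recycling, held 103, 114 and 102 CPM in the knockdown libraries, against 141, 128 and 136 CPM in the control libraries (log2 fold change -0.35, adjusted p 0.0988 without the block and 0.0240 with it).

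EIF3F was the subunit called higher with the block. It held 208, 190.0 and 209 CPM in the knockdown libraries, against 164, 133 and 175 CPM in the control libraries, each knockdown value above each control value (log2 fold change 0.36, SE 0.14, adjusted p 0.137 without the block and 0.0164 with it, edgeR). EIF3A, the largest core subunit, held 497, 541 and 513 CPM in the knockdown libraries, against 492, 423 and 569 CPM in the control libraries, and EIF3D, a subunit that can itself bind the cap of some messages, had a log2 fold change of 0.06. Neither was called (adjusted p 0.821 and 0.817), and without control library 2 their log2 fold changes were -0.054 and -0.028, against 0.06 and 0.06 with it. EIF3M, at 0.00, EIF3L, at 0.17, EIF3H, at 0.20, and EIF3E, at 0.21 on the log2 scale, were not called, although EIF3L, EIF3H and EIF3E were higher with knockdown in 3 of 3 pairs. EIF3L shares 41.1% of its exon length with a same-strand gene. EIF3C held 2.09, 1.89 and 1.33 CPM in the knockdown libraries, against 2.41, 2.06 and 3.00 CPM in the control libraries, far under the other core subunits. It and EIF3CL, with log2 fold changes of -0.49 and -0.98 (adjusted p 0.299 and 0.249), are near-identical copies, so the deposited counts of both are uncertain and give no level for the eIF3c subunit. Per length, the other 12 subunits averaged from 16.7 RPKM (EIF3F) to 212 RPKM (EIF3I) in control cells.

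**Figure D2:**
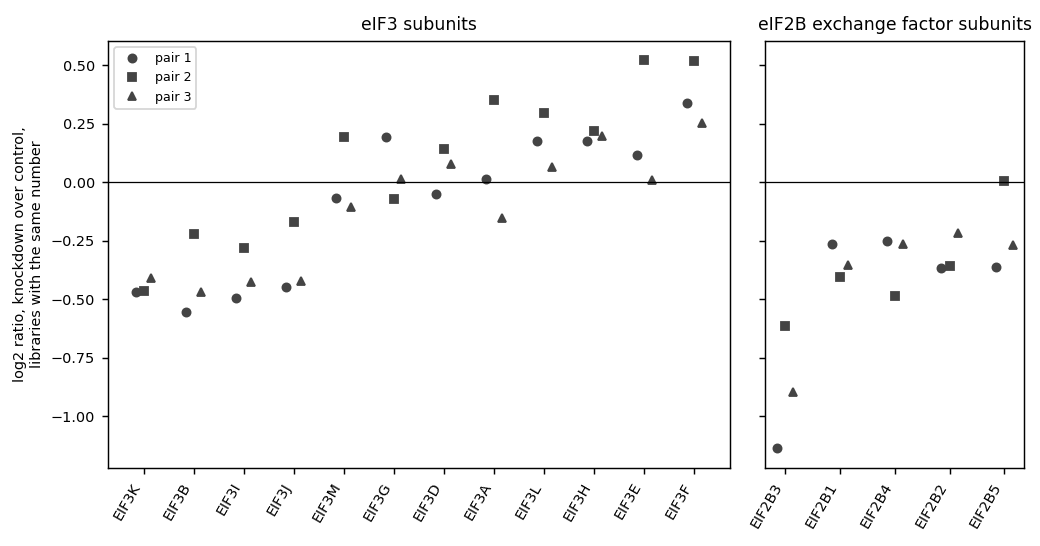
Log2 ratio of knockdown over control within each replicate number for the 12 eIF3 subunits without the EIF3C copies, left, and the 5 eIF2B subunits, right, with 1 point for each of the 3 pairs. All pairs of EIF3K, EIF3B, EIF3I and EIF3J are below 0, all pairs of EIF3F, EIF3H, EIF3L and EIF3E are above it, and in eIF2B only pair 2 of EIF2B5 is not below 0.

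Among the cap binding proteins, EIF4E, the subunit of eIF4F that holds the cap and is limiting for it in many cells, held 74.2, 60.2 and 51.0 CPM in the knockdown libraries, against 119.8, 82.8 and 85.9 CPM in the control libraries. Each knockdown library was under the lowest control library. EIF4E averaged 61.8 ± 11.7 CPM in knockdown cells and 96.1 ± 20.6 CPM in control cells (SD, n = 3 each). Its log2 fold change of -0.64 (SE 0.19) did not pass in the main test (adjusted p 0.0737, edgeR) but did with the block (0.000678) and in DESeq2. It also passed in edgeR without the filter on low counts (0.00345), but not under RLE scaling (0.0829) or library totals (0.0893), nor in limma-voom (0.0707). In the 6 fits without 1 library it was called in 0, with log2 fold changes from -0.80 to -0.41. EIF4E2 (4EHP), a cap binder that cannot recruit eIF4G, had a log2 fold change of -0.26 (adjusted p 0.297, and 0.0875 with the block). EIF4E3, a further family member of low level, had one of 0.07 (adjusted p 0.914).

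EIF4EBP1, the main mTORC1-controlled repressor of eIF4E, held 85.5, 132 and 148 CPM in the knockdown libraries, against 136, 173 and 216 CPM in the control libraries. The ranges overlapped, and each group spanned more between its replicate numbers than the group means differed, yet each knockdown library was below the control library of its number, with log2 ratios of -0.67, -0.39 and -0.55. The log2 fold change of -0.52 (SE 0.23) had an adjusted p of 0.192 without the block and 0.00188 with it (edgeR). The ratio of EIF4E to EIF4EBP1 per length was 0.0662, 0.0349 and 0.0264 in knockdown libraries, against 0.0672, 0.0366 and 0.0303 in control libraries. It thus followed the replicate number, and the groups overlapped (log2 difference -0.10, exact permutation p 0.7, 0.7 after adjustment), while within pairs it was lower with knockdown in 3 of 3, by log2 values of -0.02, -0.07 and -0.20. EIF4EBP2, the second repressor, held 128, 138 and 144 CPM in the knockdown libraries, against 136, 156 and 128 CPM in the control libraries, with a log2 fold change of -0.03 (adjusted p 0.895) that was 0.053 with library totals. The ratio of EIF4E to EIF4EBP2 per length differed by -0.60 on the log2 scale, with overlapping groups (exact permutation p 0.2, 0.3 after adjustment), and was lower with knockdown in 3 of 3 pairs. These permutations do not use the pairs. EIF4ENIF1 (4E-T), which carries eIF4E to the nucleus and to P-bodies, was not called (log2 fold change -0.19, adjusted p 0.451). EIF4EBP3 shares 73.4% of its exon length with the readthrough gene ANKHD1-EIF4EBP3 and its level is uncertain.

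Of the eIF4G scaffolds, EIF4G1, the main one in eIF4F, held 850.5, 789.9 and 829 CPM in the knockdown libraries, against 1140.4, 1264 and 1048 CPM in the control libraries. All knockdown values lay below all control values, and the log2 fold change was -0.48 (SE 0.13). It missed the threshold in the main test (adjusted p 0.0557, edgeR) and passed with the block (0.0103), in DESeq2 and in limma-voom. In edgeR it did not pass under RLE scaling (0.0676), under library totals (0.0945) or without the filter on low counts (0.0533). It was called in 0 of the 6 fits without 1 library. EIF4G2 (DAP5), a scaffold that lacks the eIF4E binding part and serves initiation without the cap complex, held 1176, 1107 and 1229 CPM in the knockdown libraries, against 1157, 1118 and 904 CPM in the control libraries. Its ranges overlapped (log2 fold change 0.14, adjusted p 0.572). The ratio of EIF4G2 to EIF4G1 per length was 1.32, 1.34 and 1.41 in knockdown libraries, against 0.968, 0.844 and 0.823 in control libraries. The lowest knockdown ratio was above the highest control ratio (log2 difference 0.63, exact permutation p 0.1, the smallest possible, and 0.2 after adjustment over 6 ratios). A ratio shows unequal change and not which of its genes changed. EIF4G3, the second eIF4E binding scaffold, had a log2 fold change of -0.10 (adjusted p 0.771).

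**Figure D3:**
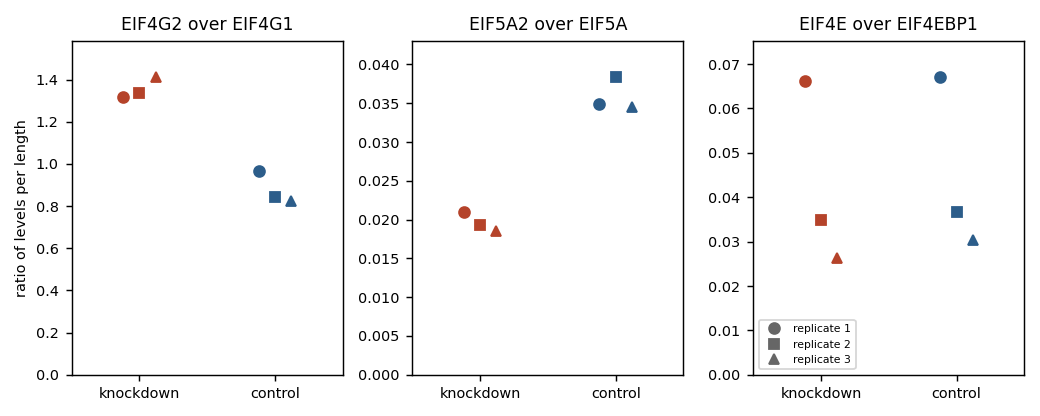
Ratio per length of EIF4G2 over EIF4G1, EIF5A2 over EIF5A and EIF4E over EIF4EBP1 in each library, knockdown left of control, on linear axes that start at 0. The EIF4G2 to EIF4G1 ratio is 1.32 to 1.41 with knockdown and 0.823 to 0.968 in control, the EIF5A2 to EIF5A ratio is lower with knockdown, and the EIF4E to EIF4EBP1 ratio overlaps.

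**Figure D4:**
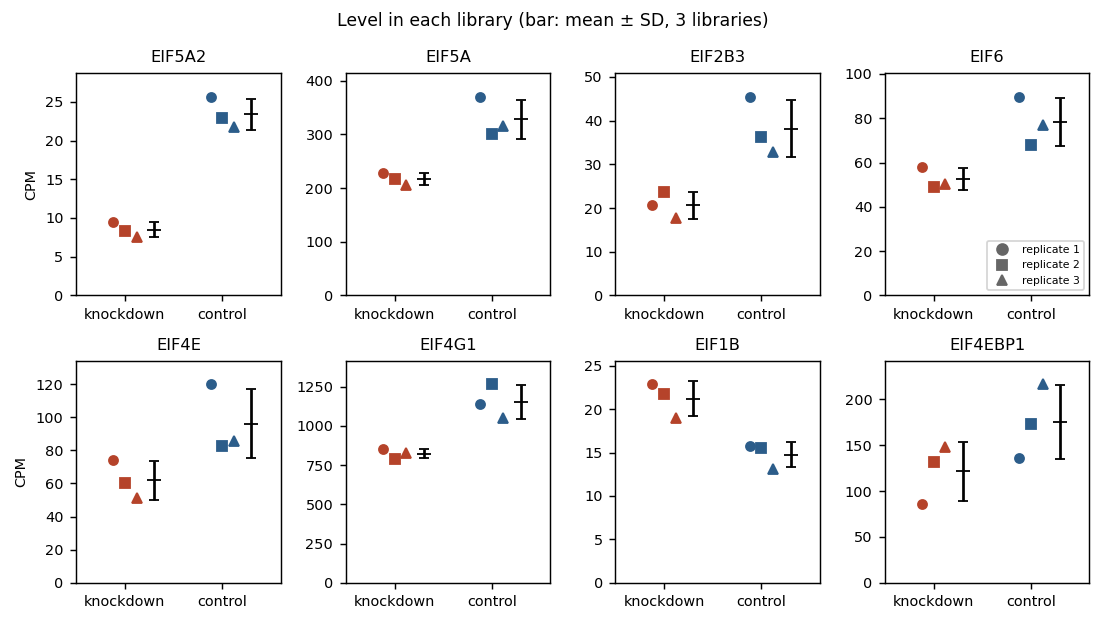
CPM of selected initiation factors in each library, with knockdown libraries left of control libraries, the same marker for the same replicate number, and a bar for the mean and SD of each group. The EIF5A2 values of 7.56 to 9.53 CPM with knockdown and 21.7 to 25.6 CPM in control do not meet, whereas the EIF4EBP1 groups overlap and follow the replicate number.

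Of the eIF4A helicases and their cofactors, EIF4A2, the paralog of EIF4A1 that is also tied to microRNA repression, held 755, 616 and 567 CPM in the knockdown libraries, against 605, 379 and 495 CPM in the control libraries. The ranges overlapped, but in each replicate number the knockdown library was higher. Its log2 fold change of 0.39 was called only with the block (adjusted p 0.243 without it and 0.0273 with it, edgeR). EIF4A3, the helicase of the exon junction complex, held 87.6, 73.0 and 71.9 CPM in the knockdown libraries, against 122, 94.2 and 87.8 CPM in the control libraries, with a log2 fold change of -0.39 called only with the block (0.164 and 0.0126). EIF4B, which stimulates the helicase, held 1149.6, 1162 and 1198 CPM in the knockdown libraries, against 987, 821 and 1100.1 CPM in the control libraries; the ranges did not overlap, and it passed in neither fit (log2 fold change 0.27, adjusted p 0.281, and 0.108 with the block). EIF4H, a related cofactor, had a log2 fold change of -0.21 (adjusted p 0.332). EIF4A1, the main helicase of eIF4F, was counted at 18.4, 19.4 and 17.9 CPM in the knockdown libraries, against 19.8, 17.1 and 16.5 CPM in the control libraries. It shares 48.6% of its exon length with same-strand genes, among them the readthrough SENP3-EIF4A1, so its level is uncertain, and so is the ratio of EIF4A2 to EIF4A1, which differed by 0.34 on the log2 scale (exact permutation p 0.1, the smallest possible, and 0.2 after adjustment).

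Among the factors of scanning and start-site choice, EIF1B, a paralog of EIF1, held 22.9, 21.8 and 19.0 CPM in the knockdown libraries, against 15.7, 15.5 and 13.1 CPM in the control libraries. Each knockdown value was above each control value, and the pairs gave log2 ratios of 0.54, 0.49 and 0.54. The log2 fold change of 0.52 (SE 0.16), the highest of the 54 factors, had an adjusted p of 0.0756 in the main test and 0.00699 with the block (edgeR), and passed in DESeq2 and with library totals. It did not pass in limma-voom (adjusted p 0.0698), nor in edgeR under RLE scaling (0.0743) or without the filter on low counts (0.111). In the 6 fits without 1 library it was called in 0. EIF1, which guards the fidelity of start codon choice, held 164, 322 and 366 CPM in the knockdown libraries, against 149, 268 and 322 CPM in the control libraries; it differed more between replicate numbers than between groups and was not called (log2 fold change 0.20, SE 0.33, adjusted p 0.748). The ratio of EIF1B to EIF1 overlapped between the groups (log2 difference 0.33, exact permutation p 0.6, 0.7 after adjustment), and was higher with knockdown in 3 of 3 pairs, by 0.40, 0.23 and 0.35 on the log2 scale. EIF5, the GTPase activator of eIF2, had a log2 fold change of -0.12 (adjusted p 0.572). EIF5B, the GTPase that joins the ribosomal subunits, held 58.7, 90.6 and 68.6 CPM in the knockdown libraries, against 51.2, 70.9 and 56.7 CPM in the control libraries, higher in 3 of 3 pairs and called in neither fit (log2 fold change 0.29, adjusted p 0.384, and 0.0563 with the block). EIF1AX, the scanning partner of EIF1, had one of 0.15, and EIF1AD one of -0.07, which was 0.017 with library totals.

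Per length, which allows a rough comparison between genes, the highest factors in control cells were EIF3I, EIF4EBP1, EIF4B, EIF4G1, EIF4G2, EIF2S3 and EIF5A. The length takes in all annotated exons of a gene and can exceed that of the messages made. EIF4A1, EIF3C, EIF3CL and EIF4EBP3, whose counts are uncertain, cannot be placed in this order. EIF3I averaged 159 ± 14.6 RPKM in knockdown cells and 212 ± 33.2 RPKM in control cells (SD, n = 3 each). EIF4EBP1 averaged 113 ± 30.1 RPKM in knockdown cells and 163 ± 37.5 RPKM in control cells, and EIF4B 190.3 ± 4.06 RPKM in knockdown cells and 158 ± 22.9 RPKM in control cells. In control cells EIF3I exceeded EIF4EBP1, and EIF4G1 exceeded EIF4G2, by more than the SD of either gene, and the other neighbours among these 7 were closer than the larger of their SDs. The lowest of these 7, EIF5A, was above the next factor, EIF4H, which averaged 70.1 ± 6.51 RPKM in knockdown cells and 81.0 ± 5.21 RPKM in control cells. EIF4G1 averaged 99.7 ± 3.72 RPKM in knockdown cells and 139 ± 13.1 RPKM in control cells, and EIF4G2 135 ± 7.11 RPKM in knockdown cells and 122 ± 15.7 RPKM in control cells. EIF4E averaged 4.39 ± 0.831 RPKM in knockdown cells and 6.84 ± 1.46 RPKM in control cells. Per length it was far under its scaffold and its repressor EIF4EBP1. Its gene model has 14067 bases of exon, against 1073 for EIF4EBP1. Not divided by length, EIF4E averaged 96.1 CPM and EIF4EBP1 175 CPM in control cells, so the gap to EIF4EBP1 depends on the lengths used. The summed level of the 55 factors was 10783, 10574 and 10777 CPM in knockdown libraries, within the 10484 to 11745 CPM of the control libraries. The group sums thus overlapped.

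Genes outside the EIF names that serve translation were counted by list, to be read against the 7.6% of all tested genes called in the main test (2.72% higher and 4.88% lower). Of 16 tested elongation and termination factors 3 fell: ETF1, the release factor that reads stop codons (187 ± 14.3 CPM in knockdown cells and 274 ± 35.6 CPM in control cells, log2 fold change -0.55, adjusted p 0.0414), EEF2K, the kinase that inhibits eEF2 (-0.49, 0.0349), and TSFM, a mitochondrial elongation factor (-0.55, 0.0387). Of 16 partners of the poly(A) tail and the cap 2 fell: NCBP1, the large subunit of the nuclear cap binding complex, averaged 68.6 ± 1.30 CPM in knockdown cells and 116 ± 11.3 CPM in control cells (log2 fold change -0.76, adjusted p 0.00824), and CYFIP1, an eIF4E binding partner of FMRP, averaged 123 ± 13.9 CPM in knockdown cells and 189 ± 8.59 CPM in control cells (-0.62, 0.0211). Among 16 genes of eIF2 alpha dephosphorylation and the stress response 1 fell, DNAJC3, the inhibitor of PERK and PKR, at 86.6 ± 5.21 CPM in knockdown cells and 122 ± 9.15 CPM in control cells (log2 fold change -0.49, adjusted p 0.0400). The mTORC1 and MNK list had 1 of 15 lower, MKNK1, a kinase that phosphorylates eIF4E, at 21.7 ± 1.67 CPM in knockdown cells and 31.3 ± 1.67 CPM in control cells (-0.53, 0.0490). None rose in these 4 lists in the main test by edgeR, where 2, 3, 2 and 1 were higher at an unadjusted p under 0.05. DESeq2 called 1 of them higher, CTIF, and limma-voom called 0.

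With the block, which called 11.2% of all tested genes higher and 14.9% lower, these lists gave 2 higher and 5 lower for elongation and termination, 4 higher and 2 lower for poly(A) and cap partners, 2 higher and 5 lower for the stress list, and 2 higher and 3 lower for mTORC1 and MNK. Their medians were -0.10, 0.06, -0.20 and -0.12 on the log2 scale, against 0.00 over all tested genes. Of 13 initiation helpers outside the EIF names 0 passed in edgeR, DESeq2 or limma-voom (3 lower and 0 higher at an unadjusted p under 0.05 in edgeR), and 5 were lower and 1 higher with the block, with a median of -0.23. The 10 genes that make and remove the hypusine of eIF5A and its polyamine precursor had 0 calls in edgeR and limma-voom and 1 lower, SMS, in DESeq2 (1 higher and 2 lower at an unadjusted p under 0.05 in edgeR). With the block 2 of them were higher and 2 lower, and their median was -0.05.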

How the data were processed

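Per the labels' protocols, Trizol was used to extract the RNA and an Illumina TruSeq kit to build the libraries. The authors deposited whole-number read counts per gene for each of the 6 libraries. Per the submitters' processing notes, the tools were bcl2fastq, STAR 2.5 on hg38, featureCounts from Subread 1.6.5 and edgeR 3.20.8. The strand setting, the annotation release and the hairpin sequence are not given in the sources used here, so reads of genes that overlap on opposite strands may be mixed.

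From the deposited counts, knockdown was compared with control by the edgeR 4.0.16 quasi-likelihood F test in R 4.3.3 (two-sided, TMM scaling, filterByExpr with a minimum count of 10, Benjamini-Hochberg over 21101 genes, threshold 0.05). CPM is the count scaled to a common library total after TMM, and RPKM divides it by the exon length of the table in kilobases. Means and SD are over 3 libraries. Library totals of 18568002 to 36234784 reads set the precision of low genes. Ratios of 2 factors were compared by exact permutation, for 6 pairs of partners or paralogs. Alternatives used limma 3.58.1 and DESeq2 1.42.0. After the fits to the data, both edgeR fits were also run on simulated counts, with means and dispersion taken from the data. The simulation for the main fit held no effect of replicate number, and no result here rests on these simulations.

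The titles give the same replicate numbers 1 to 3 in both groups, and the design text calls the replicates biological. Deviations from the group means correlated at 0.554, 0.381 and 0.358 between libraries of the same number, and at -0.39 to 0.06 between different numbers, so the numbers were taken to pair the libraries. Such deviations cancel out within a group, so these correlations are not independent of each other. The labels do not say that a number marks a shared culture. The main test has no block, and values with the replicate number as a block are given where they change a call. Libraries of a group differed by far more than sampling noise, with chi-square per degree of freedom from 23.2 to 54.3.

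The members, the lists and the pairs of factors were chosen with earlier results of these data known. Genes named were those called in the main test, the 10 with the largest fold change of those called with the block, and a set of core factors whatever their values. The other factors are named to account for every member. Genes of the other lists are named where they passed in the main test. The LNCaP markers and the markers of replication and mitosis are exceptions, given as counts and sums only. VWF, ACTA2, KRT5, DES, CTIF and SMS are named outside that rule, after their values were seen. One EIF3K row on a scaffold was left out. Promoter sequences are from RefSeq (GRCh38.p14), and protein sequences were not used here.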

Additional observations from a re-analysis of the deposited data

How the results depend on the processing

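The counts of calls moved with the setting. Over all genes, 574 were called higher and 1029 lower. These counts were 1336 and 1812 without a filter on low counts, 899 and 1424 in DESeq2, and 2358 and 3148 with the replicate block. Without the filter 41091 genes were tested, and 7.66% of them were called, against 7.60% of 21101 in the main test. The share was 11.0% in DESeq2 and 26.1% with the block. Leaving out 1 library gave 168 to 500 higher and 329 to 923 lower. Of the initiation factors 4 were lower and 0 higher, with 1 higher under library totals and in DESeq2, and 17 lower and 3 higher with the replicate block. The block kept each of the 4 calls made without it. Leaving out 1 library gave 1 to 4 lower and 0 higher, and EIF5A2 was among them each time. WDR77 was called throughout, with log2 fold changes from -1.80 to -1.55 when 1 library was left out. Of 348 values of the named factors and WDR77 under the alternatives, 310 kept direction and side of the threshold, 18 newly passed, 14 no longer passed and 6 changed sign. The changed signs were EIF2S1 without control library 1 (range over left-out libraries -0.20 to 0.094), EIF3A (-0.054 to 0.17) and EIF3D (-0.028 to 0.14) without control library 2, and EIF4EBP2 without knockdown library 1 or control library 2 (-0.10 to 0.035, with 0.00015 without knockdown library 1) and under library totals (0.053). The cause was not tested. The fits have 4 residual degrees of freedom, or 2 with the block, and a biological coefficient of variation of 20.8%, or 11.9% with it. The filter on low counts kept EIF4E1B, with 0 to 6 reads a library, out of the test. The p-values of these fits set a group difference against the spread that the model leaves among these 6 libraries.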
